A study of Mus musculus with 8 samples.

Results

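The genes described here are 39 members of the NRF2, glutathione and thioredoxin systems, which cells use to remove reactive oxygen and electrophiles. They were chosen by name, and each was represented by the probe sets annotated with its symbol alone, taking the one with the highest mean over the 8 arrays where there were several. Of the 39 genes, 36 had such a probe set, out of 19938 genes measured in that way on the array. Prdx5, Prdx6 and G6pdx had none and were not analysed here. A further 6 members (Nqo1, Gsta3, Gsta4, Gss, Gsr and Slc7a11) were below the level minimum, a log2 intensity above 7 on at least 3 arrays, so 30 members were tested. Gclm was above that level only on the 4 high fat diet (HFD) arrays, so that it could only enter the test by being high there.

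Gene expression had been measured in adipose precursors (APs), the cells of fat tissue that can divide and become adipocytes. All mice were male C57BL/6J animals aged 7 to 8 weeks, with no transgene or gene deletion, fed a standard diet (SD) or the HFD for 3 days. APs of inguinal subcutaneous fat (scAPs) and of perigonadal visceral fat (viAPs) were taken as cells depleted of CD45 and CD31 and held by SCA-1 beads. The 4 groups (scAPs on SD, scAPs on HFD, viAPs on SD and viAPs on HFD) had 2 arrays each, with the RNA of 3 mice pooled on every array, so that differences between single animals were not measured. These are bulk samples, in which a lower level can come from fewer cells of a type or from less RNA per cell, and the 2 cannot be told apart.

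NRF2, encoded by Nfe2l2, is a transcription factor held at a low protein level by KEAP1, which hands it to a CUL3 ubiquitin ligase for degradation. Oxidants and electrophiles modify cysteines of KEAP1, and NRF2 then gathers in the nucleus, pairs with a small MAF protein and binds antioxidant response elements (AREs), while BACH1 competes for the same elements. Because this control acts on the protein, the Nfe2l2 transcript is not a measure of NRF2 activity. The known targets make glutathione, reduce thioredoxin, conjugate and export electrophiles and supply NADPH, and several of them are regulated by other factors as well.

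The promoter sequences of these genes were searched for the ARE core, TGACNNNGC on either strand (GCNNNGTCA when read on the other), in RefSeq windows of 250 bases before to 50 bases after a transcription start (build GRCm38.p6). The core was found in 12.4% of all 32851 windows and in 14% of all 27025 genes, and in 10 of the 33 members with a window. Of the 12 members called in any comparison, 11 had a window, and 6 of these held the core: Gclm, Txnrd1, Srxn1, Prdx1, Sod1 and Me1. Nfe2l2 held it too. Gsta4, Abcc1, Gclc, Gsr, Prdx6 and Sod3 were not in the table. The stretches around the core are shown for Nfe2l2, for 4 members that rose and for Sod1, the only member that fell, to set the same letters beside opposite changes. Each is written 5′ to 3′ on the gene's strand, with the core in capitals.
Nfe2l2, chr2:75704865-75704913, minus strand: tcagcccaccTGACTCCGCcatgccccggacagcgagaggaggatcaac
Gclm, chr3:122245383-122245461, plus strand: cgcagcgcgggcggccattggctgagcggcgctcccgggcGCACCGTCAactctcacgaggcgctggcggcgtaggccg
Txnrd1, chr10:82859074-82859152, plus strand: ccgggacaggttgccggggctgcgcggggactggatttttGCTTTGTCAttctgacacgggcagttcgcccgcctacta
Prdx1, chr4:116685426-116685504, plus strand: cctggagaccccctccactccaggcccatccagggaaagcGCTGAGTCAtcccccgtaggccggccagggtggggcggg
Me1, chr9:86695912-86695960, minus strand: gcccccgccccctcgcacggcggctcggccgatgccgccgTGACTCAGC
Sod1, chr16:90220666-90220744, plus strand: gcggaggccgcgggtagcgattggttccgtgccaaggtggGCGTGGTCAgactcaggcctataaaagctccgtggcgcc

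Counted from the start, the first base of the core was at -240 in Nfe2l2, at -134 in Gclm, -133 in Prdx1, -92 in Txnrd1, -56 in Sod1 and -6 in Me1. In Prdx1 and Me1 the core overlapped the letters TGACTCA or their complement TGAGTCA, the sequence that AP-1 factors also bind, which 5.2% of all windows held. Txnrd1 had the core in 1 of its 3 windows and Me1 in 1 of its 2. These matches describe letters only. Binding was not measured, and elements farther from the start would not be seen in these windows.

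Before the comparisons, 3 features of the arrays touch the values that follow. On the array labelled SD viAP replicate 4 the depot genes had scAP levels: Tbx15, a subcutaneous transcription factor, was at a log2 level of 9.77 there, 4.70 on replicate 3 and 9.34 to 9.67 on the SD scAP arrays. The viAP calls that were lost without it are named below. All 9 measured precursor markers were above 7 on every array (Pdgfra, 11.01 to 11.56), while 13 of 14 leukocyte markers were below 7 on every array, Ptprc among them at 4.81 to 5.67. Of 10 erythroid markers 3 were measured alone, all below 7 on every array, but the 4 probe sets shared by several hemoglobin genes, looked up after other values were seen, were at 9.46 to 10.47 on the HFD scAP arrays and at 7.11 to 8.32 on the other 6. Of the 9 measured markers of mature adipocytes, 2 were above 7 on every array (Car3, 7.40 to 11.17, and Fabp4, 8.25 to 9.99) and 7 were below 7 on every array, Adipoq among them at 4.58 to 5.98. Their mean log2 level was 6.74 and 6.96 in SD viAPs against 6.03 and 6.12 in HFD viAPs, where 5 markers were lower on both HFD arrays, and 6.83 and 6.97 in SD scAPs against 6.49 and 6.57 in HFD scAPs, where 6 were lower and 1 was higher. Endothelial markers were higher on the HFD scAP arrays (11 of 12 higher on both; mean log2 level 7.40 and 7.36 against 6.34 and 6.35 in SD scAPs), with Pecam1, which encodes CD31, at 7.78 and 7.70 against 6.25 and 6.38. All 7 measured proliferation genes were higher on both HFD viAP arrays (mean 7.11 and 6.91 against 5.74 and 5.58). The part of these cells and of cell division in the diet changes below was not tested. Finally, the median of all 7315 tested probe sets moved up on HFD, by a log2 change of 0.30 in viAPs and 0.18 in scAPs, and it was 0.00 when the arrays were quantile-normalized again. For the members called in a depot the change less this median is given as well.

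On HFD, 7 members rose and 1 fell in viAPs, and 3 rose and 1 fell in scAPs. The risers in viAPs were Gclc, Gclm, Gstm1, Prdx1, Txnrd1, Prdx4 and Me1, those in scAPs were Gclm, Txnrd1 and Gclc, and the member that fell in both depots was Sod1. As shares of the 30 tested members these are 23.3% and 3.33% in viAPs, against 28.0% of all tested probe sets that rose and 2.30% that fell. In scAPs, 10% of the tested members rose and 3.33% fell, against 8.19% and 0.328% of all tested. Neither share of risers is a result about these genes as a set. Without HFD viAP replicate 5, 0 members were called in viAPs and 59 of all tested probe sets rose, and without either HFD scAP array 0 members were called in scAPs and 2 of all tested rose. The median log2 change over the 36 measured members was 0.30 in viAPs and 0.11 in scAPs, beside 0.30 and 0.18 over all probe sets tested and -0.05 and 0.00 over all 21789 with 1 symbol. Both HFD arrays lay above both SD arrays for 20 of the 30 tested members in viAPs and for 15 in scAPs, where 62.2% and 44.3% of all tested probe sets did so.

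**Figure D1:**
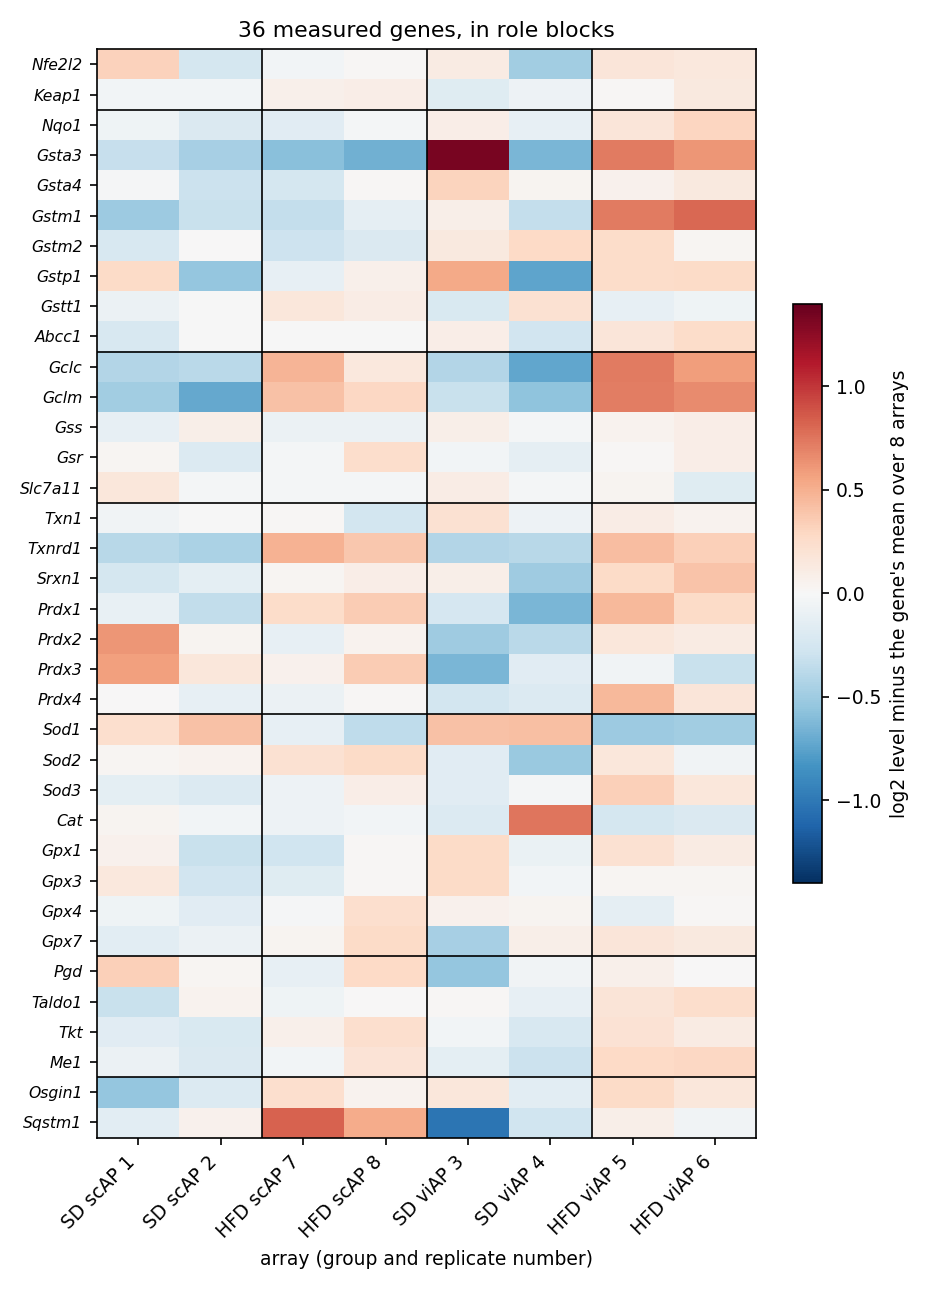
Log2 level of each of the 36 measured genes (rows, in blocks by role) on each of the 8 arrays (columns, by group and replicate number), less the gene's own mean over the arrays; red is higher and blue lower. Gclc, Gclm, Txnrd1 and Prdx1 are red on all 4 HFD arrays and blue on all 4 SD arrays, Sod1 is the reverse, and Gsta3 stands out on SD viAP replicate 3 and Cat on SD viAP replicate 4.

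NRF2 itself and its regulator were not called in either depot. Nfe2l2 had log2 levels of 10.63 and 10.06 in SD scAPs, 10.27 and 10.33 in HFD scAPs, 10.43 and 9.82 in SD viAPs and 10.48 and 10.46 in HFD viAPs. The SD arrays of a depot lay farther apart than any pair of group means, and the HFD arrays lay within or just above them. Its log2 change was 0.35 ± 0.24 (SE) in viAPs (adjusted p = 0.286) and -0.04 ± 0.24 in scAPs (adjusted p = 0.936), and without SD viAP replicate 4 the viAP change was 0.04. Keap1, near the level minimum, was at 7.12 and 7.12 in SD scAPs, 7.23 and 7.25 in HFD scAPs, 6.99 and 7.09 in SD viAPs and 7.17 and 7.30 in HFD viAPs. The HFD arrays were higher in both depots, by 0.20 ± 0.13 in viAPs (adjusted p = 0.271) and 0.12 ± 0.13 in scAPs (adjusted p = 0.605).

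The pair of genes that make up glutamate-cysteine ligase, the rate-limiting enzyme of glutathione synthesis, rose in both depots. Gclc, the catalytic subunit, was at log2 levels of 7.83 and 7.51 in SD viAPs and 8.96 and 8.82 in HFD viAPs. That is a log2 change of 1.22 ± 0.17 (SE), or 2.33-fold (adjusted p = 0.00342), larger than that of 97.7% of all tested probe sets and 0.92 above their median. In scAPs Gclc went from 7.83 and 7.86 to 8.71 and 8.38, a change of 0.70 ± 0.17 (adjusted p = 0.0421), or 0.52 above the median. All HFD arrays were above all SD arrays. Gclm, the modifier subunit, was at 6.95 and 6.70 in SD viAPs and 7.98 and 7.92 in HFD viAPs, a change of 1.12 ± 0.15 or 2.17-fold (adjusted p = 0.00336). In scAPs it was at 6.78 and 6.55 on SD and 7.67 and 7.55 on HFD, a change of 0.94 ± 0.15 or 1.92-fold (adjusted p = 0.0155). Less the median of all tested probe sets the Gclm changes were 0.82 and 0.77. Here too no HFD array overlapped an SD array. Gclm passed the level minimum only through the HFD arrays, where it was high. With no filter its adjusted p was 0.00681 in viAPs and 0.0317 in scAPs.

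In viAPs the calls of Gclc and Gclm held without SD viAP replicate 4 (1.06 and 0.99, adjusted p = 0.0108 and 0.0104) and after another quantile normalization (0.86 and 0.92, adjusted p = 0.0241 and 0.0131), and they were lost without HFD viAP replicate 5 (1.15 and 1.09, adjusted p = 0.0562 and 0.0547). The scAP call of Gclc was lost under 10 of the 16 alternatives and that of Gclm under 4, each with the direction kept.

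The other members for glutathione synthesis, glutathione recycling and cystine import were dim and flat. Gss, which joins glycine to complete glutathione, ranged from 6.34 to 6.55 over the 8 arrays, and Gsr, which reduces oxidized glutathione, from 6.71 to 7.15. Slc7a11, the cystine importer and a frequently used NRF2 target, ranged from 4.25 to 4.58, below the median of every array. None of the 3 was tested, and their log2 changes lay between -0.10 and 0.19 in both depots.

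In the thioredoxin system the reductase rose and thioredoxin itself did not. Txnrd1, the cytosolic thioredoxin reductase, was at log2 levels of 8.06 and 8.08 in SD viAPs and 8.90 and 8.80 in HFD viAPs, and at 8.08 and 8.02 in SD scAPs and 8.95 and 8.85 in HFD scAPs. The 4 SD arrays lay within 0.06 of each other and the 4 HFD arrays within 0.15. The change was 0.78 ± 0.13 (SE), or 1.72-fold, in viAPs (adjusted p = 0.0051) and 0.85 ± 0.13, or 1.80-fold, in scAPs (adjusted p = 0.0142). Less the median of all tested probe sets it was 0.49 and 0.67. With another quantile normalization the change was 0.40 in viAPs and 0.61 in scAPs, and neither was called (adjusted p = 0.0714 and 0.0734). The viAP call of Txnrd1 held without SD viAP replicate 4 (0.80, adjusted p = 0.0143). Txn1, the cytosolic thioredoxin, was at 11.46 to 11.75 on SD and 11.28 to 11.64 on HFD, with changes of 0.01 ± 0.16 in viAPs (adjusted p = 0.959) and -0.10 ± 0.16 in scAPs (adjusted p = 0.743). Srxn1, sulfiredoxin, which restores over-oxidized peroxiredoxins, had changes of 0.55 ± 0.19 in viAPs (adjusted p = 0.0587) and 0.26 ± 0.19 in scAPs (adjusted p = 0.428).

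Of the peroxiredoxins, which pass electrons from thioredoxin to hydrogen peroxide, Prdx1 and Prdx4 rose in viAPs. Prdx1, the cytosolic enzyme, was at log2 levels of 9.59 and 9.19 in SD viAPs and 10.28 and 10.10 in HFD viAPs, and at 9.72 and 9.48 in SD scAPs and 10.08 and 10.18 in HFD scAPs. The groups did not overlap in either depot. Its change was 0.80 ± 0.18 (SE) in viAPs (adjusted p = 0.0122) and 0.53 ± 0.18 in scAPs (adjusted p = 0.0958), and on the gene's other probe set it was 0.44 and 0.35. The viAP change was 0.50 above the median of all tested probe sets. Without SD viAP replicate 4 it was 0.59, and the scAP change, which uses no viAP array, stayed at 0.53. The viAP call was lost after another quantile normalization (0.40, adjusted p = 0.111), without moderation of the variances and without either HFD viAP array (adjusted p = 0.0655, 0.126 and 0.054). Prdx4, the form in the endoplasmic reticulum, was at 7.72 and 7.79 in SD viAPs and 8.43 and 8.15 in HFD viAPs, a change of 0.53 ± 0.15 (adjusted p = 0.0276), and at 7.86 to 7.99 on all scAP arrays. The Prdx4 change was 0.23 above the median, and its call was lost after another quantile normalization (0.19, adjusted p = 0.315), without moderation (adjusted p = 0.0617) and without any 1 of the viAP arrays (adjusted p = 0.0573 to 0.261).

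Prdx2 and Prdx3 were not called. Prdx2 was 10.71 and 10.13 in SD scAPs, 9.97 and 10.14 in HFD scAPs, 9.59 and 9.71 in SD viAPs and 10.25 and 10.20 in HFD viAPs, so that its viAP arrays were apart and its scAP arrays overlapped. The viAP change of 0.57 ± 0.19 had an adjusted p = 0.053, and it was 0.18 on the other probe set. Prdx3, the mitochondrial form, ranged from 6.30 to 7.51.

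**Figure D2:**
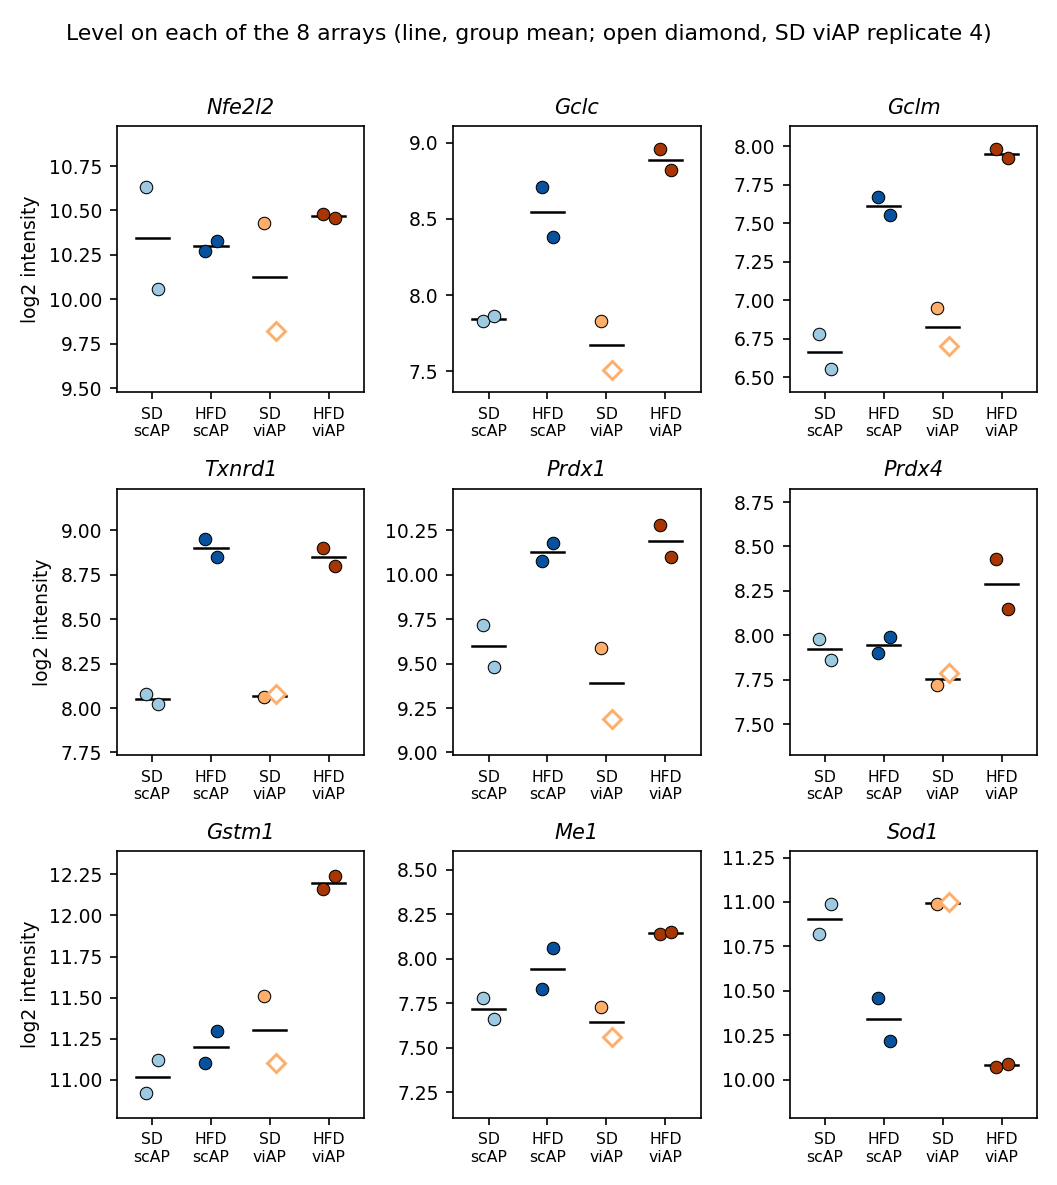
Log2 intensity (vertical axis) of Nfe2l2 and of the 8 genes called in viAPs, 1 point per array, by diet and depot (horizontal axis); lines are the means of 2 arrays and the open diamond is SD viAP replicate 4. Each panel has its own range. Gclc, Gclm and Txnrd1 are higher on every HFD array than on every SD array, Sod1 is lower, Gstm1 stands apart only in HFD viAPs, and the Nfe2l2 groups overlap in scAPs.

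Among the enzymes that act directly on superoxide and peroxides, 1 of 8 was called, and it fell. Sod1, the cytosolic copper-zinc superoxide dismutase, was at log2 levels of 10.99 and 11.00 in SD viAPs and 10.07 and 10.09 in HFD viAPs. In scAPs it was at 10.82 and 10.99 on SD and 10.46 and 10.22 on HFD. The SD arrays were higher than every HFD array. The change was -0.92 ± 0.14 (SE) in viAPs (adjusted p = 0.00435) and -0.57 ± 0.14 in scAPs (adjusted p = 0.0457), lower than those of all but 0.861% and 1.29% of the tested probe sets. Less their median it was -1.22 and -0.74. The viAP change was -0.91 (adjusted p = 0.013) without SD viAP replicate 4 and -1.30 (adjusted p = 0.00803) after another quantile normalization. It was not called without HFD viAP replicate 5 (-0.90, adjusted p = 0.0673), and the scAP call was lost under 10 of the 16 alternatives. Its single probe set gives no second reading of the gene.

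Sod2, the mitochondrial manganese enzyme, and Sod3, the secreted one, had viAP changes of 0.39 ± 0.16 (adjusted p = 0.0895) and 0.34 ± 0.14 (adjusted p = 0.0968). Cat, catalase, was at 10.32 to 10.61 on 7 arrays and at 11.32 on SD viAP replicate 4, so that its viAP change of -0.51 ± 0.26 (adjusted p = 0.162) became -0.03 without that array. The glutathione peroxidases, which reduce peroxides with glutathione, were not called either. Their log2 changes were 0.08, -0.09, -0.11 and 0.35 in viAPs and -0.01, -0.02, 0.21 and 0.27 in scAPs for Gpx1, Gpx3, Gpx4 and Gpx7, in that order. The Gpx7 change in viAPs was called when SD viAP replicate 4 was left out (0.62, adjusted p = 0.0363).

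**Figure D3:**
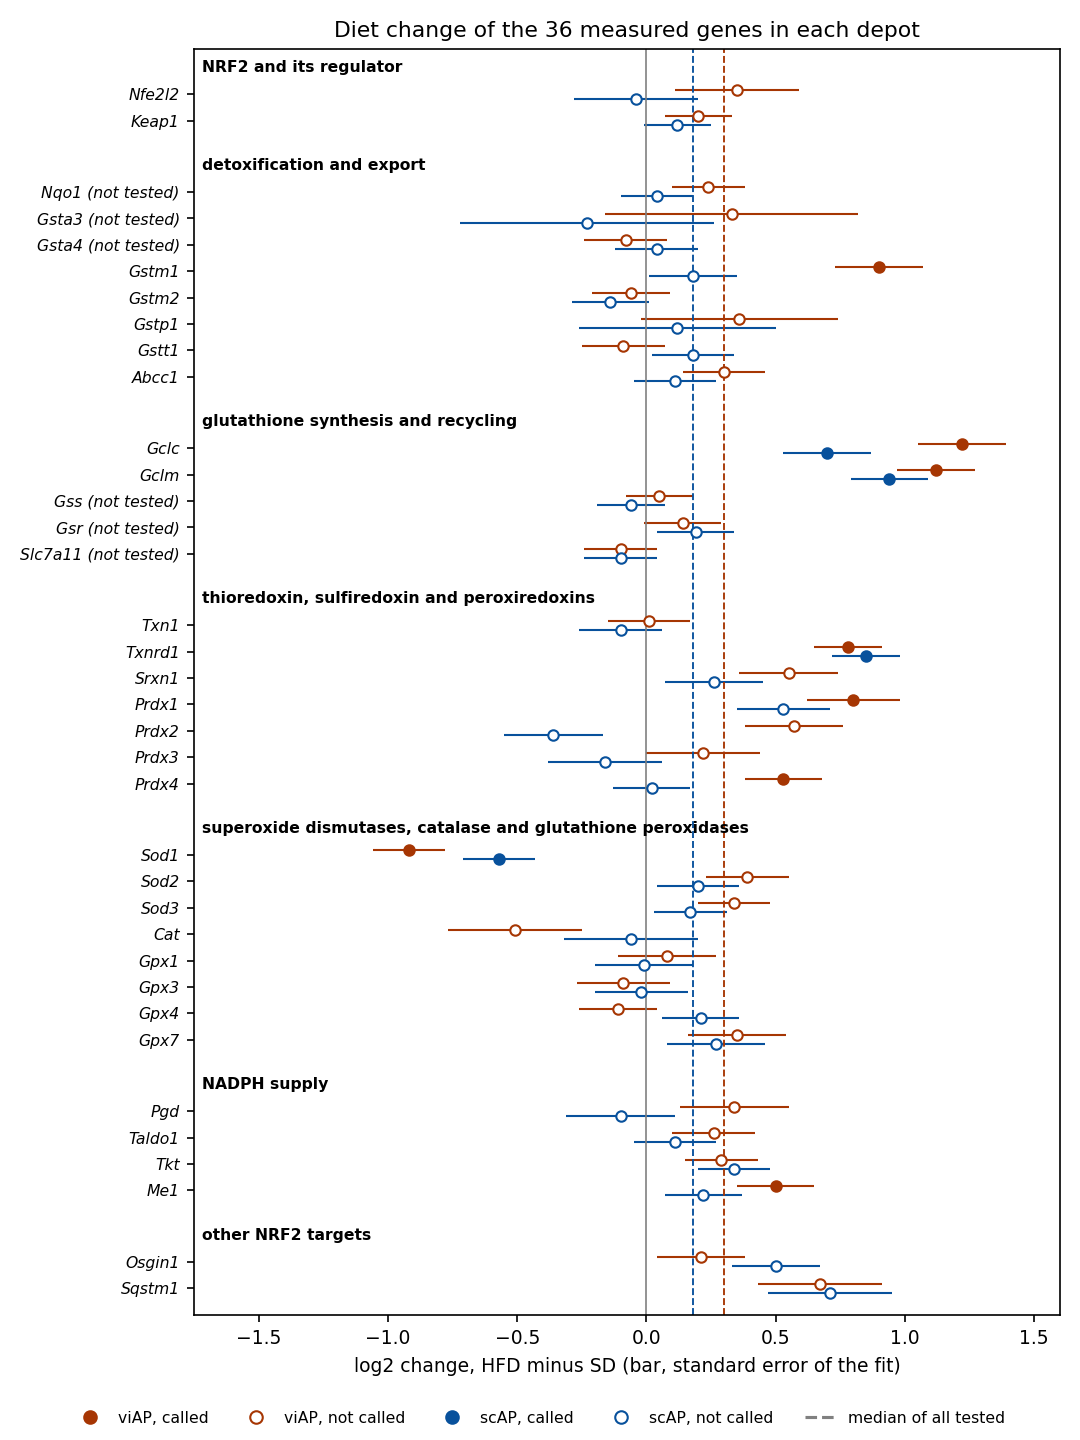
Log2 change from SD to HFD (horizontal axis) of the 36 measured genes (vertical axis, by role) in viAPs (brown) and scAPs (blue), with the standard error of the fit; filled points were called and dashed lines mark the median of all tested probe sets in each depot. The open points scatter around 0 and the dashed lines, and the filled points of Gclc, Gclm, Txnrd1 and Sod1 lie away from them in both depots.

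Of the detoxification genes, Gstm1 was the one called. It encodes a mu-class glutathione S-transferase, which joins glutathione to electrophiles. Its log2 levels were 10.92 and 11.12 in SD scAPs, 11.10 and 11.30 in HFD scAPs, 11.51 and 11.10 in SD viAPs and 12.16 and 12.24 in HFD viAPs. Only the HFD viAP arrays stood apart. The viAP change was 0.90 ± 0.17 (SE), or 1.86-fold (adjusted p = 0.00805), the scAP change was 0.18 ± 0.17 (adjusted p = 0.553), and the difference between them was 0.72 ± 0.24 (adjusted p = 0.526). The viAP change was 0.60 above the median of all tested probe sets. Leaving out SD viAP replicate 4 gave a viAP change of 0.69 (adjusted p = 0.029), and the call was lost without moderation and without either HFD viAP array (adjusted p = 0.054, 0.0813 and 0.0593). Mu-class genes are alike in sequence, and how far their probe sets separate them was not tested. Gstm2 ranged from 9.75 to 10.32 with changes of -0.06 in viAPs and -0.14 in scAPs. Other mu-class genes were higher in HFD viAPs than in HFD scAPs too, without being called. Gstm5 was at 9.06 and 9.16 against 7.91 and 8.24, and Gstm3 at 9.73 and 9.86 against 9.29 and 9.12. On SD viAP replicate 3, Gstm5 and Gstm3 were at 9.07 and 9.64.

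Nqo1, a quinone reductase widely read as an NRF2 target, was at 4.95 to 5.46 on all arrays, below each array's median and not tested. Gsta3, an alpha-class transferase, was at 7.46 on SD viAP replicate 3, 6.86 and 6.75 in HFD viAPs and 5.46 to 5.81 on the other 5 arrays, SD viAP replicate 4 among them. The 3 arrays with high Gsta3 are those on which the visceral transcription factor Tcf21 was high (9.61 to 10.61, against 5.04 to 5.52 elsewhere). Gstp1 was at 10.53 and 9.27 on the SD viAP arrays and 10.27 and 9.46 on the SD scAP arrays, a spread within groups larger than its changes of 0.36 and 0.12. Gsta4, Gstt1 and the glutathione conjugate exporter Abcc1 had changes between -0.09 and 0.30 in both depots.

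NADPH, which both reductases use, is supplied by the pentose phosphate pathway and by malic enzyme. Me1, the cytosolic malic enzyme, was at log2 levels of 7.73 and 7.56 in SD viAPs and 8.14 and 8.15 in HFD viAPs, and at 7.78 and 7.66 in SD scAPs and 7.83 and 8.06 in HFD scAPs. The groups were apart in both depots. The change was 0.50 ± 0.15 (SE) in viAPs (adjusted p = 0.0326) and 0.22 ± 0.15 in scAPs (adjusted p = 0.364), and on the other probe set it was 0.77 and 0.46. The viAP change was 0.20 above the median of all tested probe sets, and it was not called without SD viAP replicate 4 (0.42, adjusted p = 0.122), after another quantile normalization (0.18, adjusted p = 0.353), with no filter, without moderation or without either HFD viAP array (adjusted p = 0.0542, 0.0642, 0.19 and 0.154). The pentose phosphate genes Pgd, Taldo1 and Tkt had viAP changes of 0.34, 0.26 and 0.29, close to the median of all tested probe sets, and none was called.

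Over both depots together, the mean diet change called 10 members that rose (33.3% of those tested, against 35.6% of all tested probe sets) and 1 that fell, Sod1 (3.33% against 3.54%). Besides Gclm, Gclc, Txnrd1, Prdx1, Gstm1 and Me1, the risers were Sqstm1, Srxn1, Osgin1 and Tkt. Sqstm1, the autophagy receptor p62 that can draw KEAP1 away from NRF2, was at log2 levels of 10.73 and 10.94 in SD scAPs, 11.70 and 11.39 in HFD scAPs, 9.85 and 10.60 in SD viAPs and 10.96 and 10.83 in HFD viAPs. HFD was higher in both depots, with a mean change of 0.69 ± 0.17 (SE; adjusted p = 0.0121). Neither depot passed alone (0.67 and 0.71, adjusted p = 0.0591 and 0.0963), but without SD viAP replicate 4 both did (1.05 and 0.71, adjusted p = 0.0114 and 0.0227). The viAP change was 0.30 and not called (adjusted p = 0.266) without SD viAP replicate 3. The mean change was not called after another quantile normalization (0.40, adjusted p = 0.154), without moderation, without HFD viAP replicate 5 or without HFD scAP replicate 7 (adjusted p = 0.0887, 0.052 and 0.056).

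Srxn1 had a mean change of 0.40 ± 0.14 (adjusted p = 0.0439), from 8.61 and 8.72 to 8.89 and 8.95 in scAPs and from 8.94 and 8.36 to 9.13 and 9.26 in viAPs. Osgin1, an oxidative stress-induced growth inhibitor, was at 6.58 and 6.93 in SD scAPs, 7.35 and 7.17 in HFD scAPs, 7.27 and 6.97 in SD viAPs and 7.38 and 7.28 in HFD viAPs, a mean change of 0.36 ± 0.12 (adjusted p = 0.0467). Osgin1 was above 7 on 1 SD array, so it passed the level minimum through the HFD arrays, where it was high. Tkt, transketolase, was at 8.16 and 8.10 in SD scAPs, 8.39 and 8.55 in HFD scAPs, 8.28 and 8.09 in SD viAPs and 8.52 and 8.43 in HFD viAPs, a mean change of 0.31 ± 0.10 (adjusted p = 0.0348). These 3 are small changes, 0.16, 0.12 and 0.08 above the median of all tested probe sets. With no filter none of the 3 changes was called (adjusted p = 0.0711, 0.0727 and 0.0521). After another quantile normalization they were 0.06, 0.20 and 0.01 and none was called, and without SD viAP replicate 4 none was called either (adjusted p = 0.0916, 0.111 and 0.0802).

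No member passed the test of a difference between the depots in its diet change. The interaction fit in limma called 0 members and 0% of all tested probe sets, and 3 members had an unadjusted p under 0.05: Prdx2 (0.93 ± 0.27 (SE), adjusted p = 0.502), Gstm1 and Prdx4 (0.51 ± 0.21, adjusted p = 0.557). That more members were called in viAPs than in scAPs therefore does not show that they responded differently. For Gclc the difference was 0.52 ± 0.24 (adjusted p = 0.591), and for Gclm, Txnrd1 and Prdx1 it was 0.18 ± 0.22, -0.06 ± 0.19 and 0.27 ± 0.25.

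On SD, 0 members and 0% of all tested probe sets were called between viAPs and scAPs, and 5 members had an unadjusted p under 0.05. The largest differences were lower levels of Prdx2 (-0.77 ± 0.19 (SE), adjusted p = 0.158) and Prdx3 (-0.76 ± 0.22, adjusted p = 0.176) in SD viAPs. Without SD viAP replicate 4 the differences were -1.0 for Prdx3 and -0.99 for Sqstm1, from 1 SD viAP array that is assumed to vary like the other groups. Prdx3 was above 7 on 3 arrays, all of them scAP (7.51, 7.10 and 7.29). It thus passed the level minimum only through the depot where it was higher. On HFD, Gstm1 was higher in viAPs than in scAPs by 1.00 ± 0.17 (2.01-fold, adjusted p = 0.0303), 1 of 30 tested members or 3.33%, against 1.19% of all tested probe sets that were higher and 0.684% that were lower. It was not called when any SD scAP or HFD array was left out, with changes of 0.91 to 1.1. The HFD comparison between depots shares its arrays with the diet comparisons, so the Gstm1 calls rest on the same HFD viAP arrays.

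Other genes of these pathways, from lists of known regulators and enzymes, were read in the same fit. Of 71 measured genes 52 were tested, and 15 rose and 1 fell in viAPs (28.8% and 1.92%) while 6 rose and 0 fell in scAPs (11.5% and 0%, with 9 at an unadjusted p under 0.05 in limma), beside 28.0% and 8.19% of all tested probe sets that rose. Of the 7 tested regulators and partners of NRF2, 5 rose in viAPs and 3 in scAPs. Of the 16 tested glutathione genes, 4 rose in viAPs and 0 in scAPs, where 0 had an unadjusted p under 0.05. Of the 14 tested other NRF2 targets 3 and 1 rose, of the 8 thioredoxin and methionine sulfoxide genes 1 and 1, and of the 7 NADPH genes 2 and 1. No list was tested as a set. The lists were chosen with earlier results of these data known, so these counts do not show an enrichment. Bach1, Maff and Mafk are among the genes the study itself lists as raised on HFD in viAPs.

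Most of the regulators that rose bind AREs. Bach1, the repressor that competes with NRF2, went from log2 levels of 8.10 and 7.75 to 8.99 and 8.98 in viAPs and from 8.02 and 8.27 to 8.85 and 8.72 in scAPs. Its changes were 1.06 ± 0.17 (SE; adjusted p = 0.00428) and 0.64 ± 0.17 (adjusted p = 0.048). Of the small MAF genes, whose products pair with either NRF2 or BACH1, Maff and Mafk rose as well and Mafg was not called. Mafg was at 7.03 and 7.26 in SD viAPs and 7.01 and 7.23 in HFD viAPs. In scAPs it was at 7.01 and 7.24 on SD and 7.31 and 7.27 on HFD. Maff changed by 1.15 ± 0.21 in viAPs (adjusted p = 0.00703) and 1.28 ± 0.21 in scAPs (adjusted p = 0.0161), and Mafk by 1.18 ± 0.18 (adjusted p = 0.004) and 0.82 ± 0.18 (adjusted p = 0.0303). Cul3 rose in viAPs by 1.00 ± 0.24 (adjusted p = 0.0174), with 1 SD scAP array (9.69) at the level of the HFD arrays, and Nfe2l1, the NRF2 relative NRF1, by 0.83 ± 0.17 (adjusted p = 0.00942). Nfe2l1 was named after its values were seen. With SD viAP replicate 4 left out, Bach1, Maff, Mafk and Nfe2l1 stayed called in viAPs (0.89, 1.02, 1.38 and 0.63, adjusted p = 0.0135, 0.0258, 0.00503 and 0.0348) and Cul3 did not (0.87, adjusted p = 0.0646). Under another quantile normalization Mafk stayed called in viAPs (0.79, adjusted p = 0.0432), and Maff, Bach1, Cul3 and Nfe2l1 did not (0.86, 0.67, 0.56 and 0.41, adjusted p = 0.0519, 0.055, 0.0864 and 0.156). In scAPs none of Bach1, Maff and Mafk was called under it (0.40, 1.08 and 0.56, adjusted p = 0.276, 0.0825 and 0.175). Without moderation of the variances none of these scAP changes was called either (adjusted p = 0.132, 0.101 and 0.118). With no filter those of Bach1 and Mafk were not called (adjusted p = 0.0891 and 0.062).

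**Figure D4:**
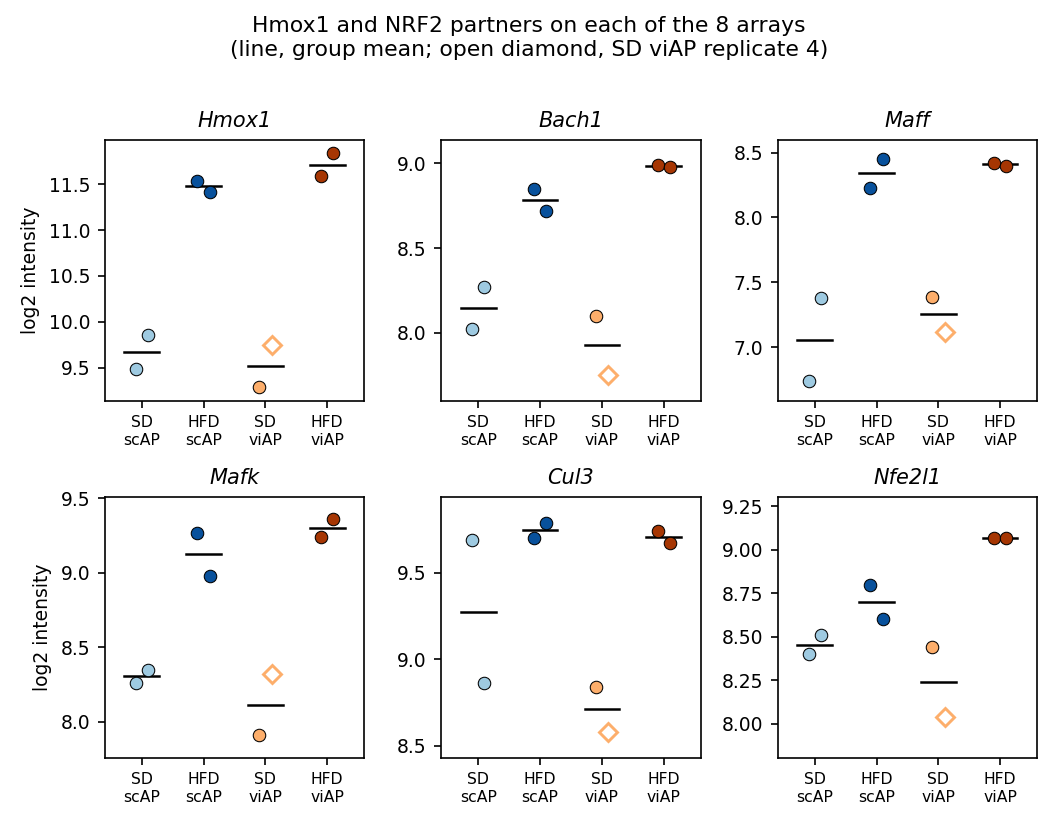
Log2 intensity (vertical axis, own range per panel) of Hmox1, Bach1, Maff, Mafk, Cul3 and Nfe2l1, 1 point per array, by diet and depot (horizontal axis); lines are the means of 2 arrays and the open diamond is SD viAP replicate 4. Hmox1, Bach1, Maff and Mafk are higher on all 4 HFD arrays than on all 4 SD arrays, and SD scAP replicate 1 of Cul3 (9.69) lies with the HFD arrays.

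Hmox1, heme oxygenase-1, a target of both NRF2 and BACH1 and the gene the study is about, changed more than any member. It was at 9.29 and 9.75 in SD viAPs and 11.59 and 11.84 in HFD viAPs, and at 9.48 and 9.86 in SD scAPs and 11.54 and 11.42 in HFD scAPs. The changes were 2.19 ± 0.20 (SE; adjusted p = 0.00151) and 1.81 ± 0.20 (adjusted p = 0.00576). With SD viAP replicate 4 left out the viAP change was 2.43, and after another quantile normalization the changes were 1.87 and 1.57 (adjusted p = 0.00954 and 0.0441). The scAP change was not called without moderation of the variances (adjusted p = 0.0706). That call also did not hold without HFD scAP replicate 7 or 8 (changes of 1.75 and 1.87).

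Of the other listed genes, Txnl1, a thioredoxin-like protein, rose in both depots (0.88 ± 0.17 and 0.67 ± 0.17, adjusted p = 0.00735 and 0.043). Its scAP call was lost after another quantile normalization (0.52, adjusted p = 0.1), with no filter (adjusted p = 0.0797) and without moderation (adjusted p = 0.127). Txnip, which binds and inhibits thioredoxin, went the other way in viAPs. Its log2 levels were 11.15 and 11.19 in SD scAPs, 11.73 and 11.44 in HFD scAPs, 10.29 and 11.31 in SD viAPs and 10.03 and 9.85 in HFD viAPs. The viAP change of -0.86 ± 0.28 (adjusted p = 0.0494) rested on SD viAP replicate 4 and was -0.35 without it (adjusted p = 0.209). On HFD, the difference of Txnip between viAPs and scAPs was -1.64 ± 0.28 (adjusted p = 0.0303). It was not called after another quantile normalization (adjusted p = 0.056), without moderation (adjusted p = 0.355) or without any 1 of the SD scAP or HFD arrays (adjusted p = 0.0658 to 0.269). Among glutathione genes the risers in viAPs were Glrx3 (1.07 ± 0.31), Ggt5 (0.68 ± 0.20), Gstm4 (0.65 ± 0.17) and Gstk1 (0.49 ± 0.14), with adjusted p = 0.0296, 0.0326, 0.0234 and 0.0326. Glrx3 was above 7 on 1 SD array (7.21), with both SD viAP arrays at 6.30. It thus passed the level minimum through the HFD arrays, and with no filter its adjusted p was 0.0602. Gstk1 was above 7 only on the SD scAP arrays (7.04 and 7.13) and the HFD viAP arrays (7.10 and 7.01). It passed the minimum through the HFD viAP arrays, with SD viAPs at 6.44 and 6.69. With no filter Gstk1 and Ggt5 were not called (adjusted p = 0.0536 and 0.061), and the Gstk1 change was 0.37 without SD viAP replicate 3. Without SD viAP replicate 4, Gstk1 kept its call and the other 3 lost it (adjusted p = 0.0741, 0.142 and 0.104), and after another quantile normalization none of the 4 was called (adjusted p = 0.0509, 0.271, 0.185 and 0.103). Of the NADPH genes, the isocitrate dehydrogenase Idh2 rose in scAPs (0.76 ± 0.15, adjusted p = 0.0269). Its call was lost after another quantile normalization (0.52, adjusted p = 0.16), with no filter (adjusted p = 0.0516) and without moderation (adjusted p = 0.0843). Without either HFD scAP array Idh2 was not called.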

How the data were processed

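Gene expression of bead-purified APs was measured on 8 Affymetrix Mouse Gene 1.0 ST arrays, 2 for each of 4 diet and depot groups taken from the labels, with RNA of 3 mice pooled per array. The authors deposited linear intensities in whole numbers, 1 value per array for each of 35556 probe sets. The submitters' notes name RMA in Affymetrix Expression Console 1.1 and the study's methods an R package. The antilog and the rounding are not given in the sources used here. Deposited intensities were converted to log2 without further scaling. The number of arrays limits the precision.

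Gene names came from the platform annotation (21789 probe sets with 1 symbol, 1621 with several, 12146 with none). Probe sets with 1 symbol and log2 values over 7 on 3 or more arrays (7315, for 6610 genes) were fitted with limma 3.58.1 in R 4.3.3, with 1 mean per group and moderated variances (eBayes; residual degrees of freedom, 4; prior, 4.906), and called at a Benjamini-Hochberg adjusted p under 0.05 over all of them. The study's methods also ask for a high variability, which a gene passes more easily the more it differs, so that part was used only as an alternative (3076 probe sets). Changes of untested genes come from the same fit over all probe sets with 1 symbol. The fit was tested on simulated data. The 6 comparisons were the diet change in each depot, its mean, its difference between depots, and the depots on each diet. Alternatives were the filter, scaling, log offset, variance model, arrays in the fit and leaving out each array. Whether pools came from separate cohorts is not given, so p-values measure the spread between these arrays.

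Members called in a comparison, Nfe2l2 and Keap1 are given on every array; of the other lists, at most the 4 largest called changes per list and comparison, and Hmox1. The members and lists were chosen with earlier results of these data known. Promoters and their positions are from RefSeq (GRCm38.p6). Plots used matplotlib 3.10.9 (Python 3.11.15).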

Additional observations from a re-analysis of the deposited data

Results flagged for a closer look

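Among the members and the other listed genes, 4 had both HFD arrays above both SD arrays in 1 depot and below them in the other. Gpx4 is the only member among them. Of all tested probe sets, 62.2% lay above and 12.1% below in viAPs, and 44.3% and 9.49% in scAPs. The share with opposite directions was not counted, so the 4 are not a result about these genes. The difference between the depots' diet changes was tested for each of the 4 with the interaction term in limma and none passed. For Gpx4 the difference, viAP change minus scAP change on the log2 scale, was -0.32 (changes of -0.11 and 0.21, adjusted p = 0.666), and on its other probe set the changes were -0.03 and 0.19. For Txnip it was -1.27 (changes of -0.86 and 0.41, adjusted p = 0.502). For Gstk1 it was 0.66 (0.49 and -0.17, adjusted p = 0.502), and for Slc48a1, a heme transporter, it was 0.23 (0.12 and -0.11, adjusted p = 0.742).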

How the results depend on the processing

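Of the 30 tested members, 7 rose in viAPs; the number was 3 after another quantile normalization and 3 without moderation of the variances. The number that fell there, 1, was 2 after another quantile normalization. In scAPs the 3 that rose became 1 under either of these, and the 1 that fell became 0 under both, with no filter, with median centring and with only the arrays of the comparison. For the mean diet change the 10 that rose became 6 with the methods' whole filter, 3 after another quantile normalization and 6 without moderation, and the 1 that fell became 2 after another quantile normalization. Gstm1, higher in HFD viAPs than HFD scAPs, was not called (0 members) after another quantile normalization or without moderation, and 1 member, Sqstm1, was lower with only the arrays of that comparison.

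With each array left out in turn, 0 to 9 members rose and 0 to 2 fell in viAPs, 0 to 5 rose and 0 to 1 fell in scAPs, 5 to 12 rose and 1 to 2 fell for the mean, 0 were called for the difference between depots, 0 were higher and 0 to 2 lower on SD, and 0 to 1 were higher and 0 to 1 lower on HFD. The viAP counts were 0 without HFD viAP replicate 5, where only 59 of all tested probe sets rose and 8 fell, and 3 rose without HFD viAP replicate 6. The scAP counts were 0 without HFD scAP replicate 7 or 8, and 1 rose and 0 fell without SD scAP replicate 2.

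The median change of the 36 members in viAPs (0.30) was 0.37 with median centring, 0.02 after another quantile normalization and 0.26 with 16 added before the log, and 0.17 to 0.34 with an array left out. In scAPs (0.11) it was 0.17 with median centring, and it turned to -0.05 after another quantile normalization (0.06 to 0.18 with an array left out). For the mean (0.16) it was 0.22 and 0.01 under these (0.11 to 0.21). For the difference between depots (0.13) it was 0.07 after another quantile normalization (0.04 to 0.19), for SD viAPs against SD scAPs (0.04) it was 0.01 with median centring and 0.12 after another quantile normalization (-0.04 to 0.09, turning without SD viAP replicate 3), and for HFD viAPs against HFD scAPs (0.16) it was 0.09 to 0.17 with an array left out. The causes were not tested. Over all tested probe sets, 537 rose and 411 fell in viAPs after another quantile normalization (56.6% higher, against 92.4%), 48 and 15 in scAPs (76.2% against 96.1%), and 941 and 761 for the mean (55.3% against 90.9%). Without moderation 734 rose and 42 fell in viAPs and 57 and 3 in scAPs. No change of a single called gene turned its direction. Arrays are numbered 1 to 8 over all groups. No paired analysis was possible because no replicate number is shared between groups. With 2 arrays a group, the spread rests on 4 residual degrees of freedom, and genes near a log2 level of 7 have little signal over background.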

Other observations

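Among listed genes not described above, 4 rose in viAPs: Me2, the mitochondrial malic enzyme (log2 change 0.71, adjusted p = 0.027 from limma), Idh1 (0.50, adjusted p = 0.049), Slc6a9, a glycine transporter (0.78, adjusted p = 0.0139), and Ugdh, which makes UDP-glucuronate for conjugation (0.54, adjusted p = 0.0382). None of the 4 was called without SD viAP replicate 4 (adjusted p = 0.0695, 0.0733, 0.0522 and 0.135), and after another quantile normalization Me2 stayed called (0.67, adjusted p = 0.0434) while Idh1, Slc6a9 and Ugdh did not (0.07, 0.36 and 0.34, adjusted p = 0.767, 0.189 and 0.155). Me2 was above a log2 level of 7 only on HFD arrays (7.01 and 7.06 in viAPs, 7.28 on 1 scAP array), so that its test depended on its being high there. With no filter Me2 was not called (adjusted p = 0.0511). Its call was also lost without moderation (adjusted p = 0.112) and without any 1 of the viAP arrays. Over both depots Park7 (0.46, adjusted p = 0.0195) and the mitochondrial thioredoxin Txn2 (0.29, adjusted p = 0.0384) rose as well, neither of them after another quantile normalization (0.16 and 0.13, adjusted p = 0.304 and 0.305).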
